A study of Mus musculus with 6 samples.

Results

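The neurotransmitter receptor subunit genes were examined across the rostral forebrain of Fezf1-/- Fezf2-/- double knockout embryos and wild-type embryos on embryonic days (E) 9.5, 10.5 and 12.5. Members were all genes whose symbol belongs to the AMPA, kainate, NMDA and metabotropic glutamate, GABA-A, GABA-B, glycine, nicotinic, muscarinic or serotonin receptor series, among genes that the platform annotation names alone on a probe set. This gave 73 of 18194 genes, and each gene was represented by its brightest probe set over the 6 arrays. They were 4 AMPA, 5 kainate, 6 NMDA, 6 metabotropic glutamate, 15 GABA-A, 1 GABA-B, 5 glycine, 15 nicotinic, 3 muscarinic and 13 serotonin receptor genes. Values are MAS5 probe set intensities on Affymetrix arrays, quantile-normalised between arrays and called signals below. Probe sets bind with different strength, so signals are compared between arrays for a gene and not between genes.

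The 6 groups were double knockout and wild type, each at the 3 ages, with 1 array a group. Where 3 values of a genotype are given, they run from E9.5 over E10.5 to E12.5. The tissue was the hand-dissected forebrain as far back as the end of the lateral ventricle, and total RNA was labelled with biotin. The knockout is labelled -/- for both targeted genes, which encode zinc finger repressors made in the young forebrain, and no Cre line or other tissue restriction is named in its label. The labels give neither the strain nor the deleted part of each gene, and do not say whether an array holds 1 embryo or a pool. The p-values below therefore measure only the spread between these arrays.

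Receptor subunits assemble into the channels and G protein-coupled receptors through which neurons sense transmitter. AMPA, kainate and NMDA receptors are tetramers opened by glutamate, whereas GABA-A, glycine, nicotinic and 5-HT3 receptors are pentamers. Metabotropic glutamate, GABA-B, muscarinic and the other serotonin receptors signal through G proteins. In the embryonic forebrain these genes are known mainly from young neurons, which begin to accumulate during this period, and some subunits are also found in progenitors.

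The targeted genes were checked first. Fezf2 had signals of 0.458, 0.904 and 1.66 in double knockout forebrain against 78.9, 146 and 249 in wild type, a mean log2 difference of -4.32 ± 0.28 (limma's moderated SE, adjusted p = 6.52e-04). Fezf1 had 97.7, 78.4 and 49.5 in double knockout forebrain against 251, 143 and 174 in wild type, a mean log2 difference of -1.27 ± 0.17 (limma, adjusted p = 0.0417). Both genes were lower in the knockout at every age, as labelled, although Fezf1 kept a measured signal. Its call was lost with trimmed-mean scaling (adjusted p = 0.0586) and without the filter (adjusted p = 0.186). Without the E12.5 pair of arrays neither gene passed (limma, adjusted p = 0.0846 for Fezf2 and 0.411 for Fezf1). Whether the Fezf1 probe set lies in the deleted part is not stated in the labels. The telencephalic genes Lhx2, Six3 and Emx2 lay above the median signal on all 6 arrays.

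The median of all normalised values, 24.01, served as a mark of measured brightness, which depends on the binding of a probe set as well as on RNA. At or below it on all 6 arrays were 43 of the 73 members, and 30.1% of all genes. Above it on all 6 arrays were Gabbr1, Glrb, Chrna7 and Grik5, 4 members, and 52.6% of all genes, and 26 members were above it on 1 to 5 arrays. By array, 15, 15 and 21 members exceeded it in double knockout forebrain, and 12, 15 and 20 in wild type. Among the 15 ionotropic glutamate genes these counts were 4, 4 and 8 in double knockout and 4, 3 and 7 in wild type.

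**Figure D1:**
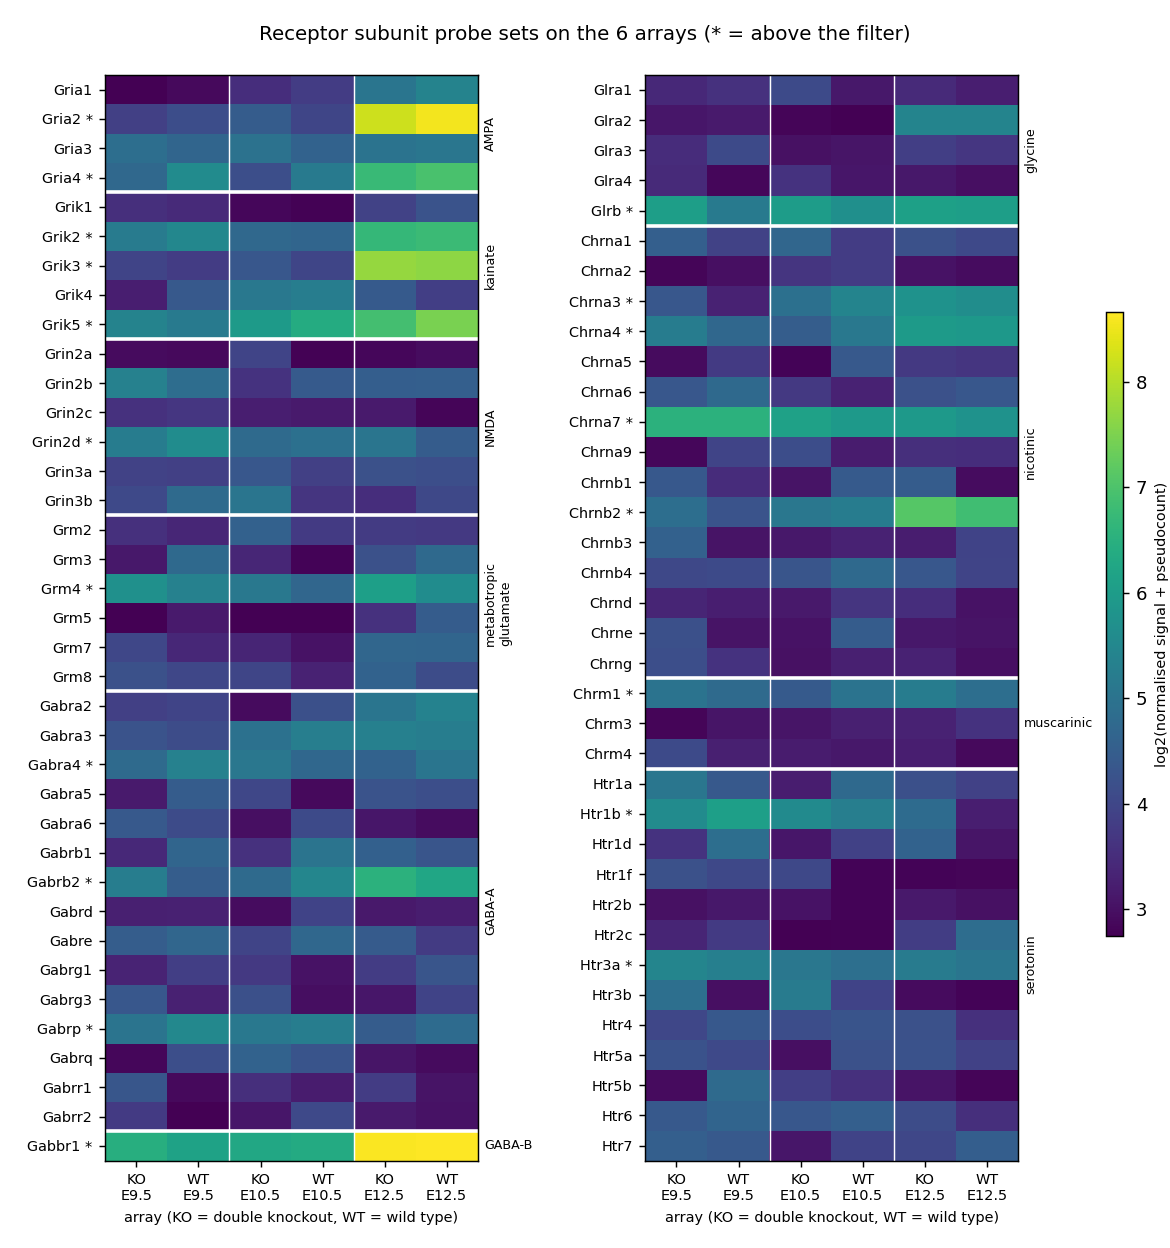
Log2(normalised signal + pseudocount) of the 73 members, grouped by family, on the 6 arrays, with the double knockout array left of the wild-type array at each age. An asterisk marks the 19 members above the expression filter, and colours are to be compared along a row. The E12.5 arrays are the brightest for Gria2, Grik3, Gabbr1 and Chrnb2.

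Change with age was measured over both genotypes, with limma on log2(signal + 6.50) and genotype as a covariate. Between E9.5 and E12.5, 10 of the 19 members bright enough to be tested rose and 2 fell at an adjusted p below 0.05. Over the 11091 tested genes 25.9% rose and 36.9% fell, 62.8% in all. The filter kept members through their mean, so a member dim at E9.5 was tested only where another age was bright, and the count of 19 is not a sample of all members. Without the filter, 14 of all 73 members rose and 4 fell, compared with 16% and 21.6% of all 18194 genes, 37.6% in all. Without scaling, the share of higher calls among all tested genes moved to 5448 higher and 1663 lower, against 2871 and 4091.

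The AMPA receptor gene Gria2, whose edited product makes the channel impermeable to calcium, had the largest fitted change of the 19. Its signal was 7.99, 15.5 and 290 in double knockout forebrain, against 11.2, 9.33 and 368 in wild type. All 4 early arrays were below the median signal, and both E12.5 arrays lay far above them, with a rise of 4.38 ± 0.27 on the log2 scale, 20.8-fold (limma, adjusted p = 1.75e-06). The other Gria2 probe sets gave 4.16 and 1.06. The AMPA subunit gene Gria4 had signals of 20.4, 11.5 and 102 in double knockout forebrain, against 41.8, 29.6 and 118 in wild type, and rose by 1.69 ± 0.26 (adjusted p = 4.02e-04, limma), whereas its other probe sets gave 1.13 and 0.19. Gria1 was below the filter, with 0.241, 4.93 and 26.6 in double knockout forebrain against 0.923, 7.32 and 35.8 in wild type. Without the filter it rose by 2.40 (limma, adjusted p = 5.99e-04), and its other probe set gave 0.43.

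The 3 tested kainate receptor genes rose as well. Grik3 had signals of 8.97, 13.8 and 206 in double knockout forebrain and 7.47, 9.35 and 194 in wild type, a rise of 3.81 ± 0.25, or 14.03-fold (limma, adjusted p = 2.63e-06). Its other probe set stayed between 0.841 and 3.73 on all arrays and did not show this change (0.04 on the log2 scale). Grik2 had 30.2, 20.5 and 96.2 in double knockout forebrain and 37.9, 19.2 and 103 in wild type, and rose by 1.39 ± 0.23 (limma, adjusted p = 5.56e-04), with 2.95 from its other probe set. For Grik2 the E10.5 arrays were the lowest in both genotypes. Grik5, which forms receptors together with the other kainate subunits, had 35.5, 56.0 and 112 in double knockout forebrain and 29.2, 76.6 and 172 in wild type, and rose by 1.91 ± 0.23 (limma, adjusted p = 7.53e-05).

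The GABA-B receptor gene Gabbr1, which carries the GABA-binding subunit, had signals of 80.8, 72.4 and 388 in double knockout forebrain and 65.1, 75.7 and 398 in wild type. The 4 arrays of E9.5 and E10.5 lay between 65.1 and 80.8, and the rise to E12.5 was 2.34 ± 0.15, or 5.06-fold (limma, adjusted p = 2.52e-06). Its other probe sets gave 0.70, 2.37 and -0.14. The nicotinic subunit gene Chrnb2 had 22.8, 27.8 and 130 in double knockout forebrain and 12.7, 30.8 and 110 in wild type, and rose by 2.41 ± 0.25 (limma, adjusted p = 3.34e-05). Its second probe set, at 14.6, 23.7 and 22.1 in double knockout and 19.9, 11.6 and 17.0 in wild type, gave a change of 0.14, and the third gave 0.40. Chrna3, an alpha subunit known from ganglia, had 13.9, 23.9 and 48.0 in double knockout forebrain and 3.39, 36.02 and 43.4 in wild type, and rose by 1.88 ± 0.38 (limma, adjusted p = 0.00191), with 0.80 and 0.71 from its other probe sets. The GABA-A subunit gene Gabrb2 had 31.8, 21.0 and 86.5 in double knockout forebrain and 15.8, 37.5 and 69.9 in wild type, and rose by 1.53 ± 0.33 (limma, adjusted p = 0.0031), which was lost without the double knockout E12.5 array (1.41, adjusted p = 0.062). Its other probe sets gave 1.86, 0.92, 0.64 and 0.21.

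The nicotinic alpha subunit genes Chrna4 and Chrna7 moved less. Chrna4, the usual partner of Chrnb2, had 31.0, 16.0 and 55.9 in double knockout forebrain and 20.1, 28.2 and 53.4 in wild type, a rise of 0.95 ± 0.31 (limma, adjusted p = 0.0231), and its other probe sets gave 1.08 and -0.54. The first call was lost without the wild-type E9.5 array (0.56, adjusted p = 0.21), the double knockout E12.5 array (adjusted p = 0.168) or the wild-type E12.5 array (adjusted p = 0.126). Chrna7, which forms channels of identical subunits, had 86.6, 63.7 and 53.9 in double knockout forebrain and 87.1, 55.5 and 48.0 in wild type, and fell by 0.70 ± 0.19 on the log2 scale (limma, adjusted p = 0.00895). The fall was lost with trimmed-mean scaling (-0.36, adjusted p = 0.128), turned to 0.042 without scaling, and was lost without the wild-type E9.5, double knockout E12.5 or wild-type E12.5 array (adjusted p = 0.0756, 0.0529 and 0.0689, limma). Its other probe set gave 0.12. Htr1b, a serotonin receptor that inhibits through Gi proteins, had 42.0, 40.9 and 21.6 in double knockout forebrain and 61.7, 32.6 and 2.93 in wild type. It fell by 1.82 ± 0.43 (limma, adjusted p = 0.0047), and without the wild-type E12.5 array the change was -0.98 (adjusted p = 0.0763). Its other probe set gave -1.07.

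**Figure D2:**
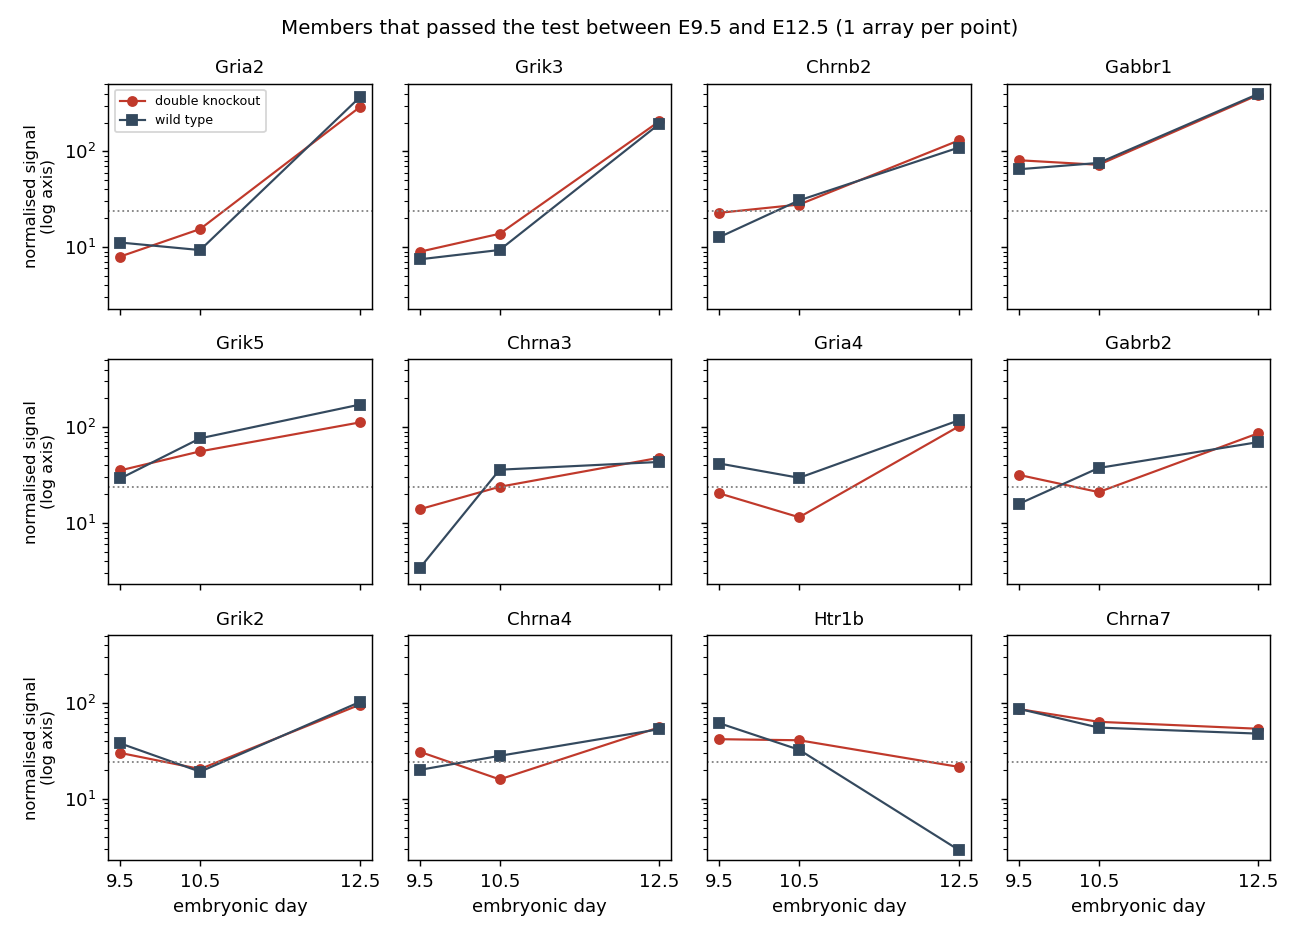
Normalised signal on a log axis of the 12 members that passed between E9.5 and E12.5, at each age, with 1 array per point, double knockout in red circles and wild type in blue squares; the dotted line is the median of all values, 24.01. Gria2 and Grik3 lie below it at E9.5 and E10.5 and above it at E12.5 in both genotypes.

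In 6 families the tested member that changed least did not pass. The NMDA subunit gene Grin2d gave -0.67 (limma, adjusted p = 0.089), Gabra4 -0.24 (0.536), the muscarinic receptor gene Chrm1 0.16 (0.688), and Htr3a, a serotonin-gated channel, -0.25 (0.416). Grm4, a group III metabotropic glutamate receptor, gave 0.32 (0.266). Glrb, the glycine receptor subunit that anchors to gephyrin, gave 0.48 (0.118) with its brightest probe set but 1.29 with the second (adjusted p = 0.00297). None of the 6 NMDA members passed in either direction without the filter (limma, 0 at an unadjusted p below 0.05), with the brightest probe set of each. Of all 18194 genes, 8259 were below that unadjusted p. For Grin2b that probe set gave -0.58 and the other probe sets 0.96, 1.002 and 1.68, so its direction depends on the probe set.

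The promoters shown are those of the 4 genes with the largest rises among the 19 tested members, and joint regulation was not tested. Gria1, below the filter, is not among them. Each runs from 250 bases before to 50 bases after the RefSeq start in the GRCm38.p6 build, written 5′ to 3′ on the gene's strand, with GC boxes (GGGCGG, both strands) in capitals and, in Gria2, a match on the opposite strand to the RE1 core less its first base. Gria2 lies at chr3:80802786-80803085 (minus strand), Grik3 at chr4:125490446-125490745 (plus), Chrnb2 at chr3:89764583-89764882 (minus) and Gabbr1 at chr17:37045716-37046015 (plus).
Gria2: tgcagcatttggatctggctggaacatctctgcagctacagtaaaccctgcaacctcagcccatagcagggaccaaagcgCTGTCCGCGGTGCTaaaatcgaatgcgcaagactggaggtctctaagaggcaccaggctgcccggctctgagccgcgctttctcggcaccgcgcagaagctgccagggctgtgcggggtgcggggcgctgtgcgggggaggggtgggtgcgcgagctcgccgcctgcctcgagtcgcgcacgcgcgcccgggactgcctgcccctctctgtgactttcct
Grik3: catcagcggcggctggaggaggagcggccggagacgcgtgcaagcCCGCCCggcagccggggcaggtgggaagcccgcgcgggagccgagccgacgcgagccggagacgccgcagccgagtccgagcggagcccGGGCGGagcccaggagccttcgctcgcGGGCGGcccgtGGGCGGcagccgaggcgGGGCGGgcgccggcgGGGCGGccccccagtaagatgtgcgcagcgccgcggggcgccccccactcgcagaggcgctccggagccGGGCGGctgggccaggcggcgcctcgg
Chrnb2: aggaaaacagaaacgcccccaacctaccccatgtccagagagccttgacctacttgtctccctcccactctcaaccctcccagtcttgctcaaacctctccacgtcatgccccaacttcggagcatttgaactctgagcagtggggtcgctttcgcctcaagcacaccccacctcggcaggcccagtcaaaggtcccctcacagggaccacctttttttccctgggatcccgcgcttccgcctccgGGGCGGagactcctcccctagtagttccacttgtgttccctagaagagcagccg
Gabbr1: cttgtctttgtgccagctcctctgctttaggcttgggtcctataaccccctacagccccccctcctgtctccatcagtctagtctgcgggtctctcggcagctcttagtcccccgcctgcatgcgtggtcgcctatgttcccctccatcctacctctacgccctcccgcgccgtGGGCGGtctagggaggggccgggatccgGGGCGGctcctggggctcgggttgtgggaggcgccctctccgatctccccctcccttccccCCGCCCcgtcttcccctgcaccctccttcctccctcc

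The GC box occurs in 35.7% of all 32851 promoters in the table and in 49.2% of the 65 promoters of the 55 members that have one, and the promoters differ in base composition, with a median GC content of 59.0% in members and 52.67% overall. Grik3 holds 7 GC boxes, Gabbr1 3, Chrnb2 1 and Gria2 0. The element RE1, bound by the repressor REST, was first searched by its core of 15 letters on both strands and was found in no member promoter and in 0.0365% of all promoters. After the Gria2 promoter had been read the first base of the core was dropped, and the remaining 14 letters are found in Gria2, at positions 81 to 94 of the printed sequence, in no other member and in 0.0517% of all promoters. This choice was made with the sequence in view, the match is a description of letters, and binding was not measured. In all 10 motifs were searched.

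Between E9.5 and E10.5, 2 tested members rose and none fell (limma, adjusted p below 0.05), where 13.8% of tested genes rose and 15.1% fell, 29% in all. At an unadjusted p below 0.05 (limma) there were 6 of the 19 members and 4638 of the 11091 tested genes. The 2 calls were Chrna3 (1.34 ± 0.38, adjusted p = 0.0272) and Grik5 (0.90 ± 0.23, adjusted p = 0.0186), and the first was 13.9 and 23.9 in double knockout forebrain at the 2 ages, against 3.39 and 36.02 in wild type. Both calls were lost without the wild-type E9.5 array (limma, adjusted p = 0.206 for Chrna3 and 0.177 for Grik5) and without the wild-type E10.5 array (0.243 and 0.127), and that of Chrna3 also without either E12.5 array (0.0742 without double knockout, 0.0729 without wild type). Without the filter no member passed with limma, against 6.74% of all genes higher and 6.88% lower, 13.6% in all. In that fit 12 of 73 members and 5307 of all 18194 genes had an unadjusted p below 0.05 (limma). Without scaling the calls over all tested genes were 532 higher and 5344 lower, against 1535 and 1677.

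Between E10.5 and E12.5, 10 tested members rose and 1 fell, where 20.2% of tested genes rose and 29.9% fell, 50.2% in all (limma, adjusted p below 0.05). Without the filter 17 of 73 members rose and 2 fell, against 12.1% and 16.8% of all genes, 28.9% in all. Gria2 rose by 4.16, Grik3 by 3.52, Gabbr1 by 2.31, Gria4 by 2.19, Grik2 by 2.01 and Chrnb2 by 1.82 on the log2 scale. Gabrb2 rose by 1.28, Chrna4 by 1.13, Grik5 by 1.02 and Grm4 by 0.94, and Htr1b fell by 1.40. Without the wild-type E12.5 array 6 members passed in place of 11, since Gabrb2, Chrna4, Grik5, Grm4 and Htr1b did not (limma, adjusted p = 0.0791, 0.1, 0.111, 0.0701 and 0.302). Without the double knockout E12.5 array Gabrb2, Chrna4 and Grm4 did not pass (0.131, 0.133 and 0.0929), without the double knockout E10.5 array Gabrb2, Chrna4 and Htr1b did not (0.129, 0.141 and 0.0611), and without the wild-type E10.5 array Htr1b did not (0.102). Without scaling the calls over all tested genes were 8469 higher and 411 lower, against 2244 and 3321.

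A rule for all 73 members was added after the values had been seen. It asked for both E12.5 arrays at least 2-fold above both E9.5 arrays, and above the median signal. It was met by 12 of 73 members, 16.4%, and by 5.47% of all genes. The opposite pattern was met by 0 of 73 members and by 5.84% of all genes, but it needs both E9.5 arrays above the median. At E9.5 only 15 members in double knockout and 12 in wild type were above it, against 11164 and 11107 of all 18194 genes. Few members could therefore meet it, so the 0 is not read as an absence of falls. The falls counted next have the same limit. The shares of rises, 16.4% and 5.47%, also compare sets of unlike brightness at E9.5, and their difference was not tested. Between E9.5 and E10.5 the later arrays stood above in 0 members (0.802% of all genes) and below in 0 (0.302%). Between E10.5 and E12.5 they stood above in 8 members (3.66%) and below in 0 (3.36%). The 12 were Gria1, Gria2, Gria4, Grik2, Grik3, Grik5, Gabra2, Gabra3, Gabbr1, Glra2, Chrna3 and Chrnb2. Among them were 3 of the 4 AMPA and 3 of the 5 kainate members. The second probe sets of Gria1 and Grik3 gave 0.43 and 0.04. Those of Gria2, Gria4 and Grik2 gave 4.16, 1.13 and 2.95, and Grik5 has 1 probe set. Glra2, the glycine receptor alpha subunit of the embryonic brain, had signals of 2.13, 0.568 and 35.97 in double knockout forebrain and 2.49, 0.221 and 36.2 in wild type. Gabra2 had 8.05, 1.04 and 26.7 in double knockout forebrain and 9.10, 11.9 and 35.2 in wild type. Gabra3 had 12.6, 24.6 and 33.8 in double knockout forebrain and 10.9, 32.3 and 31.8 in wild type, so its E10.5 arrays were already near the E12.5 level.

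Markers of other cell types moved with age too. All 12 neuron markers rose between E9.5 and E12.5 (limma), by 2.21 to 6.32 on the log2 scale, with a median of 3.67 against -0.15 over all tested genes, and their summed signal was 705, 1372 and 12920 in double knockout forebrain and 625, 2224 and 12870 in wild type. Of 7 neural progenitor markers 5 rose, where 25.9% of all tested genes rose and 36.9% fell. Of 7 head mesenchyme markers 6 fell and 1 rose, with a median of -2.08, 4 of 5 surface ectoderm markers fell and 3 of 4 erythroid markers fell. None of 8 skeletal muscle markers reached the filter. In whole tissue, fewer cells of a type and less RNA per cell cannot be told apart, and the part of these shifts in the receptor changes was not tested.

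Genes that serve the receptors were described from lists of scaffolds, assembly factors and transmitter enzymes. Between E9.5 and E12.5, 25.9% of all tested genes rose and 36.9% fell, 62.8% in all, and the list counts stand beside these shares. Of 18 tested glutamate receptor scaffold and auxiliary genes, 9 rose and 2 fell, the latter being Dlg1 (-0.505) and Homer3 (-0.69). Cnih2, which helps AMPA receptors to the surface, rose by 2.86, Dlg4, the scaffold PSD-95, by 2.94 and Cacng4, an AMPA receptor auxiliary subunit, by 2.49. The second Dlg4 probe set changed by only 0.38 in double knockout and 0.675 in wild type, and that of Cacng4 by 1.84 and 1.31. Of 13 tested anchoring and assembly genes for the pentameric receptors, 7 rose and 0 fell. Tmem35a, a chaperone of nicotinic receptors, had signals of 10.3, 27.6 and 231 in double knockout forebrain and 4.18, 52.4 and 282 in wild type. Of 11 tested genes for transmitter synthesis, vesicle loading and uptake, 7 rose and 3 fell. Gad1, which makes GABA, rose by 4.70 and Slc17a6, the vesicular glutamate transporter VGLUT2, by 5.67, whereas Maob, which breaks down monoamines, fell by 3.12.

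Between genotypes, 0 of the 19 tested members passed across the 3 ages with limma, where 0.0721% of tested genes passed, 0.018% higher and 0.0541% lower in the knockout. At an unadjusted p below 0.05 (limma) there was 1 of the 19 members, Gria4, and 511 of the 11091 tested genes. No member passed without the filter either (limma), where 0.0055% of all genes did. Without it, 3 of 73 members and 830 of all 18194 genes had an unadjusted p below 0.05 (limma). Over all 73 members the median log2 difference, knockout minus wild type, was 0.01, -0.01 and 0.09 at the 3 ages, against 0.01, -0.01 and 0.01 over all genes. A missed threshold does not show that the genotypes are alike, since the fit has 2 residual degrees of freedom and counts an effect of 1 age as error.

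Members with 1 sign at every age were 13 higher and 7 lower of 73, compared with 12.8% and 12% of all genes. Among tested members, Grm4 had signals of 46.4, 28.2 and 60.9 in double knockout forebrain and 34.1, 19.6 and 42.7 in wild type, and the knockout array was the higher at each age (0.41 ± 0.19, limma, adjusted p = 0.999). Gria4 was lower in the knockout at each age, with differences of -0.85, -1.01 and -0.20 (mean -0.68 ± 0.22, limma, adjusted p = 0.999), but its other probe sets gave 0.28, 0.54 and -0.06, and -0.08, 0.40 and -0.70. Glrb differed by 0.90, 0.33 and 0.06, and its second probe set by -0.04, 0.69 and -0.16. Htr3a differed by 0.16, 0.17 and 0.16, Grik3 by 0.15, 0.36 and 0.09, and Gabrp, the GABA-A pi subunit gene, by -0.48, -0.13 and -0.34, with -1.67, -0.04 and 0.38 from its second probe set. The other Grik3 probe set differed by -0.09, -0.48 and -0.17.

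At single ages there was no test, and a member was counted when the knockout and wild-type arrays differed at least 2-fold with the brighter above the median. No member met this at E9.5, where 1.62% of all genes did (0.874% higher, 0.742% lower), or at E12.5, where 0.555% did (0.319% higher, 0.236% lower). At E10.5, 2 members were higher and 2 lower, against 0.813% and 1.1% of all genes, 1.92% in all. Grin3b, an NMDA receptor subunit gene, had 26.5 in double knockout forebrain against 6.23 in wild type, and Htr3b, the partner of Htr3a, had 30.6 against 8.76. Gabrb1 had 5.62 in double knockout forebrain against 25.9 in wild type, and Gria4 had 11.5 against 29.6. The other Gabrb1 probe sets differed by -0.36, -0.17 and -1.30 on the log2 scale at E10.5. The brighter signals, 25.9 to 30.6, lay just above the median, and 14, 12 and 4 other members differed at least 2-fold at the 3 ages with both arrays below it.

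**Figure D3:**
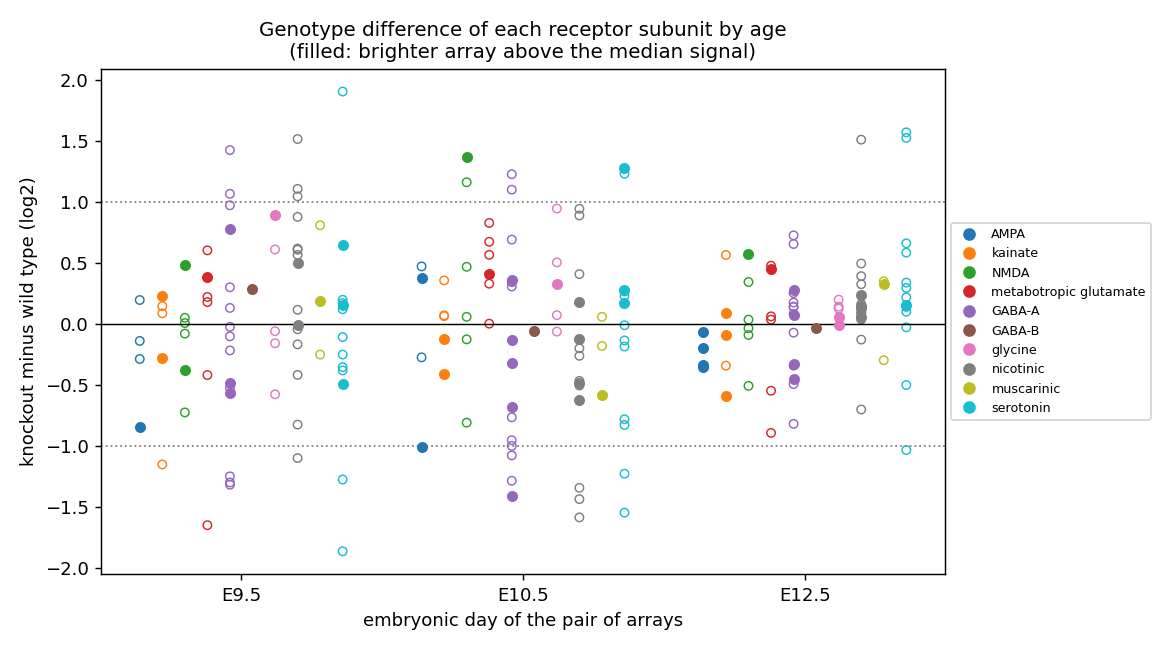
Log2 difference, knockout minus wild type, of each of the 73 members at each age (1 array per genotype), coloured by family; filled points have the brighter array above the median signal and dotted lines mark 2-fold. Most filled points lie between the dotted lines, and the 4 beyond them are at E10.5.

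At E10.5 the neuron markers had a median difference of -0.62, with 2 of 12 higher in the knockout. The neural progenitor markers had -0.39, with 0 of 7 higher, and the 3 measured telencephalic markers -1.06, with 0 higher. Over all genes the median was -0.01, with 8754 of 18194 higher. Head mesenchyme markers differed by 0.47 at E9.5 and -0.51 at E12.5. Companion genes differed in both directions. Slc17a6 had 7.21 in double knockout forebrain at E10.5 against 50.3 in wild type, and Neto1, a kainate receptor auxiliary gene, had 8.97 against 35.3. Dlgap3, from the scaffold list, was higher in the knockout at E10.5 (33.8 against 6.51) and at E12.5 (41.4 against 16.4). Lhfpl4, from the assembly list, was higher at E9.5 (38.5 against 15.6), but its second probe set differed by -0.007 on the log2 scale. Dlg4 had 89.2 in double knockout forebrain at E12.5 against 193 in wild type, but its second probe set differed by only 0.025 on the log2 scale. The part of these shifts in the member differences was not tested.

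The age change was also taken within each genotype. The 2-fold rule itself requires a rise in both genotypes, so the direction of change in its 12 members is not a result. In these members the knockout change minus the wild-type change ran from -0.92 to 0.65 on the log2 scale, with a median of -0.14. Gria2 changed by 4.35 in double knockout forebrain and by 4.40 in wild type, Grik3 by 3.78 and 3.84, and Gabbr1 by 2.18 and 2.50. Chrna3 changed by 1.42 in double knockout forebrain and by 2.34 in wild type, the widest gap of the 12. With 1 array a group, a difference in age change between genotypes was not tested.

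**Figure D4:**
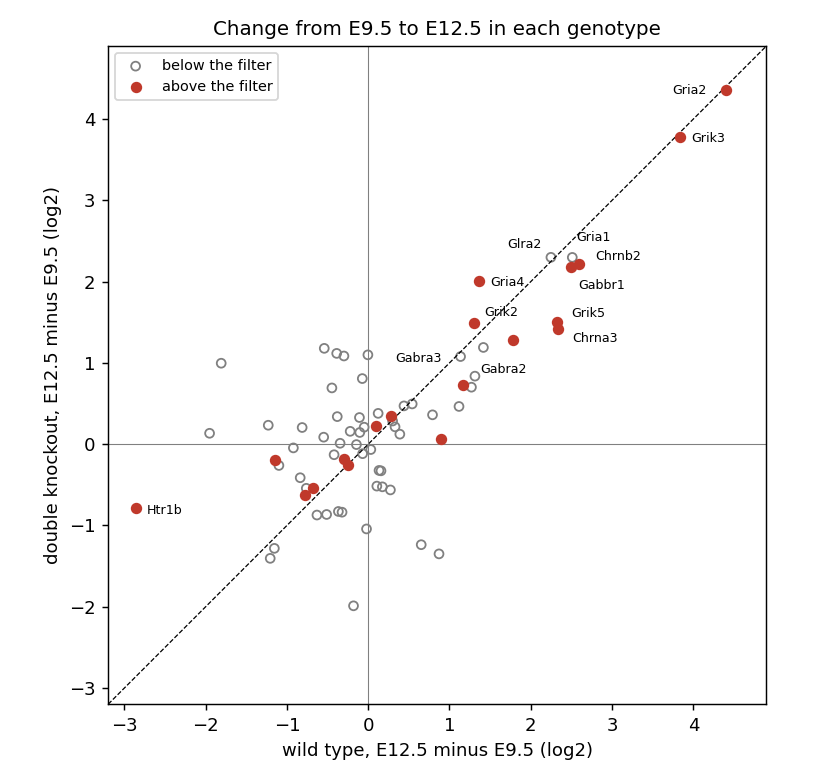
Log2 change from E9.5 to E12.5 of each member in double knockout (vertical) against wild type (horizontal), with members above the expression filter filled and the dashed line marking equal change. Gria2 and Grik3 lie on the line at the upper right, and Htr1b lies at -0.79 in double knockout and -2.85 in wild type.

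Several members are neighbours in the genome. In RefSeq gene order 26 of the 73 lie in 11 clusters with at most 2 protein-coding genes between members. By their brightest probe sets, neighbours did not all change alike. Gria2 changed by 4.35 in double knockout forebrain and 4.40 in wild type, and its neighbour Glrb by 0.06 and 0.90. The second Glrb probe set changed by 1.23 in double knockout and 1.35 in wild type, and that of Gria2 by 4.10 and 4.22. In the cluster Chrna5, Chrna3 and Chrnb4, Chrna3 changed by 1.42 in double knockout and 2.34 in wild type. Chrna5 changed by 0.81 and -0.07, and Chrnb4 by 0.33 and -0.11, and both were below the filter. With second probe sets, Chrna3 changed by 0.84 and 0.75, Chrna5 by 0.66 and 0.94, and Chrnb4 by -0.05 and 0.08. The contrast of Chrna3 with Chrna5 therefore depends on the probe set.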

How the data were processed

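RNA of 6 forebrain dissections, 1 array per genotype and age, was analysed. The authors deposited a linear intensity value per probe set; MAS5 produced it, per the submitters' processing notes, and its version, scaling target and detection calls were not analysed here. Trimmed means (2%) of the arrays lay between 74.3 and 162, and the number of arrays limits the precision. From these values, quantile normalisation, log2(signal + 6.50) (6.50 is the lower quartile of the deposited values) and limma 3.58.1 in R 4.3.3 (lmFit, eBayes with a trend) were run, with age and genotype as terms, 2 residual degrees of freedom and 9.395 after moderation. This scale understates fold changes of dim genes.

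Of 45101 probe sets, 34958 name 1 gene, 932 several and 9211 none that is listed. Tests covered 11091 genes with a mean log2 value over the probe set median, which took in 19 of 73 members and left out 54. The Benjamini-Hochberg adjustment ran over these genes, with a threshold of 0.05. All 73 symbols matched RefSeq (GRCm38.p6), which gave names, gene order and promoters; 44 members have several probe sets. Members and lists were chosen with earlier results of these data known. Named were members that passed an age contrast, tested members with 1 sign at all ages, members of the 2-fold counts, the tested member of each family that changed least, and the targeted genes. Alternatives changed the scaling, pseudocount, filter, probe set, age block and moderation, and left out arrays. The test was tried on simulated data.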

Additional observations from a re-analysis of the deposited data

Results flagged for a closer look

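Gabrb2, a GABA-A receptor beta subunit gene, differed between genotypes in opposite directions at 2 ages. Its signal was 31.8 in double knockout forebrain at E9.5 against 15.8 in wild type, and 21.0 in double knockout at E10.5 against 37.5 in wild type. The log2 difference, knockout minus wild type, was 0.78 at E9.5 and -0.68 at E10.5, so the 2 ages differed by -1.46. With 1 array a group the difference between ages was not tested. These are values of the brightest of 5 probe sets. The second gave 0.33 at E9.5 and -1.003 at E10.5, whereas the other 3 gave -0.20, -0.14 and -0.01 at E9.5 and -0.65, -0.60 and -0.10 at E10.5, without a change of direction.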

How the results depend on the processing

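Between E9.5 and E12.5, 12 members passed; 1 passed with the filter at the upper quartile, 5 with the mean of a gene's probe sets, 6 with the second-brightest probe set, and 9 to 14 with 1 array left out. Between E9.5 and E10.5, 2 passed; 6, all lower, passed without scaling, 1 with a pseudocount of 1, 0 without the filter, 0 with the upper-quartile filter, 1 with the second probe set, and 0 to 3 with 1 array left out. Between E10.5 and E12.5, 11 passed; 19, all higher, passed without scaling, 19 without the filter, 1 with the upper-quartile filter, 5 with the mean of probe sets, 6 with the second, and 6 to 11 with 1 array left out. No member passed between genotypes with any age's pair left out (0 to 0). At E9.5 the 2-fold count of 0 became 2 with a pseudocount of 1 and 1 with the mean of probe sets. At E10.5 the count of 4 became 0 without scaling, 0 with the median as pseudocount, 2 with the mean of probe sets and 0 with the brightness limit at the upper quartile. At E12.5 the count of 0 became 4 without scaling and 2 with the trimmed mean. The 12 members of the added rule became 7 with the median pseudocount and 6 with the second probe set. Chrna7 changed by 0.042 without scaling, and Gria4 differed by 0.543 at E10.5 with its second probe set. The cause of these shifts was not tested, except that stricter filters test fewer genes. No paired analysis was possible because every replicate number is 1, beyond the pairing by age that the genotype fit already holds (1 knockout and 1 wild-type array at each of 3 ages). Among the alternative values, 70 moved, 52 lost a call, 9 gained one, 2 reversed and 592 were labelled the same. For a count, the same means a value near the main count. For a gene without a call, it allows a change of sign when the shift is smaller than the SE.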
